A study of Mus musculus with 6 samples.

Results

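Double negative (DN) T cells, which carry a T cell receptor but neither CD4 nor CD8, were set against CD4 T cells of the ischemic mouse kidney. Members were the barcodes of these 2 libraries with at least 500 detected genes, at most 20% of unique molecular identifiers (UMIs) in mitochondrial genes and at least 1 UMI over Cd3d, Cd3e and Cd3g. Of the 4705 deposited barcodes of the ischemia-reperfusion (IR) DN library 3951 were kept, and of the 10878 of the IR CD4 library 10301 were kept. Together these 14252 cells were part of the 49177 cells that passed the same filters in all 6 libraries of the series. All cells came from kidneys of male wild-type C57BL/6J mice of 7 to 8 weeks. In the ischemic group both renal pedicles were clamped for 30 min and then released, with serum creatinine measured at baseline and at 24 h, while the controls (Ctrl) were normal kidneys. Viable CD45+ cells that bound an antibody to the T cell receptor beta chain were sorted into CD4+, CD8+ and DN fractions and sequenced as 3' droplet libraries, 1 library per fraction and kidney state. The number of animals behind each library is not given in the sources used here. With 1 library per group no test between groups was possible, so intervals below cover counting error only and no p-value is given.

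Conventional CD4 T cells recognise peptide on MHC class II, and their naive members recirculate between blood and lymphoid organs under the control of receptors such as CCR7 and S1PR1. DN T cells are a minor population of lymphoid tissue that forms a larger share of the T cells in kidney, and they overlap in surface phenotype with innate-like T cells that carry natural killer (NK) receptors. Many NK receptors have no signalling domain of their own and act through adaptors with immunoreceptor tyrosine-based activation motifs (ITAMs), such as the Fc receptor gamma chain (Fcer1g) and DAP12 (Tyrobp).

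The 300-base start regions of 4 genes that the comparison turned on are shown so that the loci can be placed. They run from 250 bases before to 50 bases after the RefSeq transcription start, 5′ to 3′ on the strand of the gene, on GRCm38.p6. Fcer1g (chr1:171234300-171234599, minus strand) encodes an adaptor whose transcripts were higher in IR DN than in IR CD4. Klra1 (chr6:130386825-130387124, minus strand) encodes an NK receptor of the Ly49 family. Spry2 (chr14:105896770-105897069, minus strand) encodes an inhibitor of receptor tyrosine kinase signalling. Igfbp4 (chr11:99040994-99041293, plus strand) was among the genes furthest below CD4. Capitals mark matches, on either strand, to 4 strings of letters: AGGAAGT (ETS factors), TGTGGTT (RUNX factors), AGGTGTGA (T-box factors) and TGANTCA (AP-1).
Fcer1g: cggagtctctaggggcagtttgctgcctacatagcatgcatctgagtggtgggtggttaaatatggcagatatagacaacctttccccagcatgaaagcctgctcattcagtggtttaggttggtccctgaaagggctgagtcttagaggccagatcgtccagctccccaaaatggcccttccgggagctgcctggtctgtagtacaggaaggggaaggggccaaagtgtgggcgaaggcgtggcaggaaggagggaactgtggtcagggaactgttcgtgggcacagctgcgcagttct
Klra1: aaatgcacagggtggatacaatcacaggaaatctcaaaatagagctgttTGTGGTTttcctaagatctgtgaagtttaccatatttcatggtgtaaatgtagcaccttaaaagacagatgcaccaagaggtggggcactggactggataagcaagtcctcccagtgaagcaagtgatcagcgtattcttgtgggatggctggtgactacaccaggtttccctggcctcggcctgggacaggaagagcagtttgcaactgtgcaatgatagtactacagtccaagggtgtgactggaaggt
Spry2: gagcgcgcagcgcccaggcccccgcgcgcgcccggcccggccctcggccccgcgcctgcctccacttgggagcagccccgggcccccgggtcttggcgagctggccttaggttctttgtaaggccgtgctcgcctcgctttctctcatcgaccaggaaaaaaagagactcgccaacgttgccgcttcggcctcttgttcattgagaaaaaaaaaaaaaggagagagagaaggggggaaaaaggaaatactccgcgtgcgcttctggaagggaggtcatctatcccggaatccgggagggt
Igfbp4: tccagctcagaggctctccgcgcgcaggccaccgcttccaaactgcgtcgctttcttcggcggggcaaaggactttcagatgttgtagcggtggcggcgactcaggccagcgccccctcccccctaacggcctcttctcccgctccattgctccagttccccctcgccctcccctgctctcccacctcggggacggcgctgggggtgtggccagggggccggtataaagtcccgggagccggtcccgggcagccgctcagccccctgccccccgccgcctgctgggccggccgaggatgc
The only match in these 4 windows was a RUNX string in Klra1, which began 201 bases before the start. Over the 27025 genes with a start region in the table, 10.7% held the ETS string, 6.09% the RUNX string, 1.48% the T-box string and 8.97% the AP-1 string. A match describes letters only. No start region for Cd4 or Ccr7 was read here.

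Transcripts of the sorted markers matched the labels. Cd4 transcripts were counted 3 times in IR DN, 0.623 CPM (interval 0.129 to 1.82), and 2581 times in IR CD4, 146.9 CPM (141 to 153). CPM stands for the UMI sum of a gene divided by the UMI sum of the library and multiplied by 1000000, after mitochondrial genes, ribosomal protein genes and Malat1 were left out. Cd4 was therefore lower in IR DN by a log2 ratio of -7.88, with a counting interval from -10.16 to -6.33. Cd8a had 0 UMIs in both libraries, against 406 CPM in IR CD8, while Cd8b1 stood at 2.08 CPM in IR DN and 5.81 CPM in IR CD4, against 1121 CPM in IR CD8. Trac, which encodes the constant region of the receptor alpha chain, was at 799 CPM in IR DN and 980.2 CPM in IR CD4. Trbc2, for the beta chain, was at 1764 and 2376 CPM. Cd3g was close to equal (1484 and 1501 CPM), although the rule required a Cd3 UMI and these levels are therefore a description. Trdc, the constant gene of the delta chain, stayed under the minimum of 10 CPM in both (1.66 and 3.42 CPM).

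The IR DN library was the shallower of the 2. The median cell held 1520 UMIs in IR DN and 2441 in IR CD4, against 8554 in control DN and 7267 in control CD4. After the features above were left out, 4815075 UMIs remained in IR DN and 17566188 in IR CD4, so that 3 counts, taken as the floor for a gene with no UMI, corresponded to 0.623 and 0.171 CPM. Ribosomal protein genes took 27.7% of UMIs in IR DN and 35.3% in IR CD4. Barcodes that passed the quality limits without a Cd3 UMI numbered 423 (9.67%) in IR DN and 452 (4.2%) in IR CD4. Of the kept barcodes, 15 occurred in both libraries.

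Of 8904 genes that reached 10 CPM in either library, 651 (7.31%) differed 2-fold or more between them, 431 (4.84%) with the higher level in IR DN and 220 (2.47%) with the lower. Such genes are called higher or lower below. The median log2 ratio over all 8904 genes was 0.01. In the normal kidney, whose libraries share no cells with the ischemic ones, 113 of 8893 genes (1.27%) were called higher in DN and 121 (1.36%) lower.

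Many of the higher calls were of genes near 0 in the normal kidney. On the CD8 libraries alone, which the DN and CD4 ratio does not use, 428 genes were at 5 CPM or more in IR CD8, at least 4-fold above control CD8 and under 10 CPM there. This set was drawn up after the data were seen. Of its 282 members at 10 CPM or more, 220 were called higher in IR DN and 17 lower, so it held 51.0% of all higher calls. Srrm4, a splicing factor of neurons, stood at 120.5 CPM in IR DN and 27.8 CPM in IR CD4, but at 0.244 CPM in control DN and 0.324 CPM in control CD4. Ms4a1, which encodes the B cell antigen CD20, was in the set too, at 15.2 and 3.81 CPM, although the other B cell markers were not called higher. Summed over the set, the UMIs per 10000 retained UMIs were 125.2 in IR DN and 49.3 in IR CD4, against 7.35 and 6.21 in the control libraries. The raw UMI totals of single members in IR DN over IR CD4 had a median ratio of 0.962, while the library totals differed 3.65-fold. Summed over the set, the raw UMIs were 60270 in IR DN and 86564 in IR CD4. In barcodes without a Cd3 UMI the set made up 358.4 per 10000 UMIs in IR DN and 226.9 in IR CD4. The part of these values in the higher calls was not tested. Without the set, 211 of 8622 genes (2.45%) were called higher and 203 (2.35%) lower, and the genes described below as higher are outside it unless stated.

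**Figure D1:**
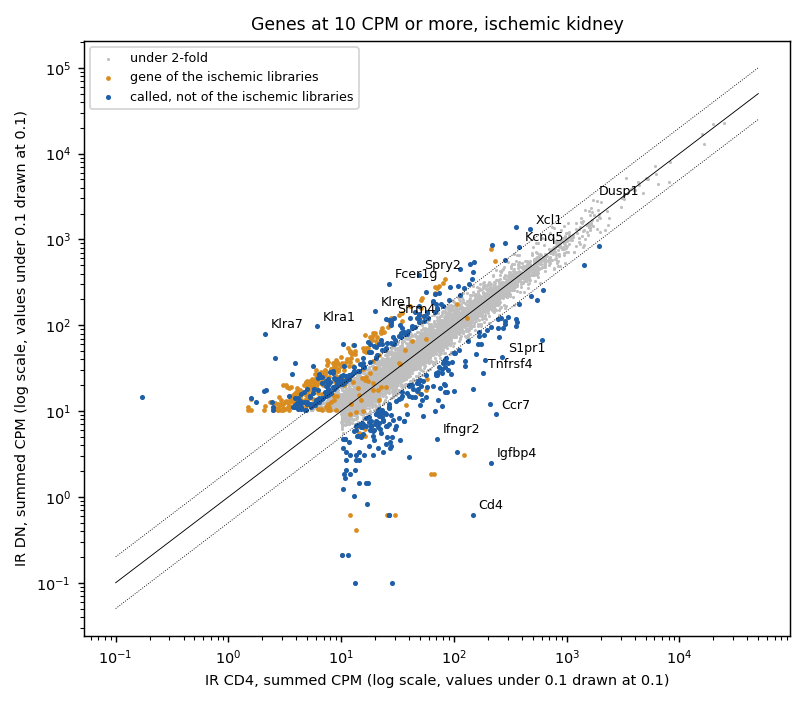
Summed CPM of the 8904 genes at 10 CPM or more in IR DN (vertical axis) against IR CD4 (horizontal axis), both on log scales, with dotted lines at 2-fold. Cd4, Igfbp4 and Ccr7 lie far below the diagonal, Klra7, Klra1, Fcer1g and Spry2 far above it, and the genes of the ischemic libraries form an orange band above the 2-fold line.

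NK cell receptors were higher in IR DN almost throughout the list. Of 25 listed receptors, 17 reached 10 CPM, and 16 of these were called higher in IR DN, against 4.84% of all genes. None was called lower, and their median log2 ratio was 2.23. The inhibitory and activating Ly49 receptors are encoded by the Klra genes. Klra7 stood at 79.5 CPM (71.8 to 87.9) in IR DN and 2.11 CPM (1.48 to 2.9) in IR CD4, a log2 ratio of 5.24 (4.75 to 5.77). Klra1 stood at 98.03 CPM (89.4 to 107) and 6.09 CPM (4.99 to 7.36), a log2 ratio of 4.01. Klra6 had 71 UMIs in IR DN and 3 in IR CD4, a ratio of 86.3 with a log2 interval from 4.83 to 8.74. Without cells with transcripts of naive T cells Klra6 came under the minimum level and the log2 ratio of Klra7 was 4.45. The Klra genes are close paralogs, so reads could have been divided among them or dropped, and levels of single members are uncertain.

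The C-type lectin receptors of the same chromosome 6 cluster followed. Klre1, which forms heterodimers with KLRI receptors, had 146.4 CPM (136 to 158) in the DN cells and 20.04 CPM (18 to 22.2) in the CD4 cells. Klrd1 (CD94), the partner chain of the NKG2 receptors, was at 542.5 and 151.3 CPM. Its partners Klrc1 (NKG2A, inhibitory) and Klrc2 (NKG2C, activating) were at 245.3 against 57.0 CPM and at 118.4 against 25.2 CPM. Klrk1 (NKG2D, a receptor for stress-induced ligands) was at 448 and 113 CPM, and Klrb1c (NK1.1) at 230.7 and 67.4 CPM. Klrg1, a receptor of late effector cells, was the member at 10 CPM or more that was not called, at 8.31 CPM in IR DN and 15.5 CPM in IR CD4. The NK cell receptor Ncr1, which T cells rarely carry, had 35 UMIs in IR DN and 8 in IR CD4, below the minimum level.

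The adaptors differed among themselves. For Fcer1g the IR DN library gave 305.1 CPM (290 to 321) and the IR CD4 library 26.8 CPM (24.4 to 29.3), a log2 ratio of 3.51 (3.36 to 3.66). Tyrobp, which pairs with activating Ly49 receptors, was at 58.2 CPM (51.5 to 65.4) and 13.1 CPM (11.5 to 14.9). Clnk, an adaptor of the SLP-76 family, was at 33.2 and 5.64 CPM. Cd247, which encodes the CD3 zeta chain and so signals for the T cell receptor, went the other way, at 124.4 CPM in IR DN and 303.8 CPM in IR CD4. Hcst (DAP10), the adaptor of NKG2D, differed little (1331 and 1276 CPM), as did the kinases Lck (376.7 and 392.4 CPM) and Fyn (300.9 and 306 CPM). Thus 3 of the 10 members at 10 CPM or more were called higher, against 4.84% of all genes, and 1 lower, against 2.47%.

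**Figure D2:**
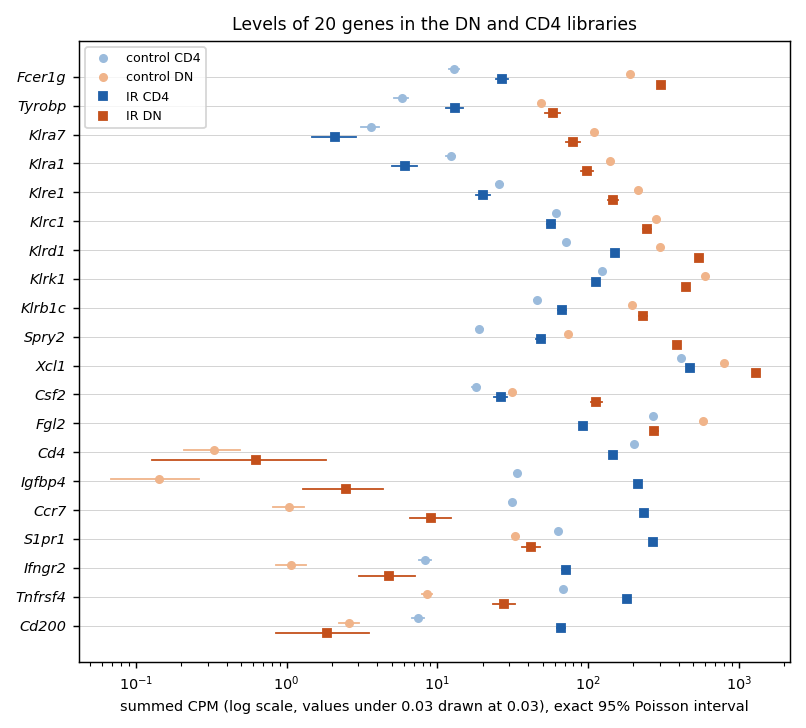
Summed CPM (log scale) of 20 genes in the control CD4, control DN, IR CD4 and IR DN libraries, with exact 95% Poisson intervals of the counts. From Fcer1g to Fgl2 the IR DN value lies above the IR CD4 value, from Cd4 to Cd200 below it, and the control pair shows the same order for each of the 20 genes.

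Spry2, an inhibitor of MAP kinase signalling, was among the 15 largest ratios of genes higher in IR DN. It stood at 388.2 CPM (371 to 406) in IR DN and 48.7 CPM (45.5 to 52) in IR CD4, a log2 ratio of 3.0 (2.88 to 3.11). IR CD8 was at 30.9 CPM. Its paralog Spry1 differed in the other direction, with 7 UMIs (1.45 CPM) in IR DN and 292 UMIs (16.6 CPM) in IR CD4. The other feedback inhibitors of the MAP kinase pathway stayed within 2-fold. Dusp1, a phosphatase of p38 and JNK that is induced by stress, was at 2851 CPM in IR DN and 1713 CPM in IR CD4, and Dusp6, a phosphatase of ERK, at 158.7 and 93.4 CPM. In all, 1 of 10 members at 10 CPM or more was called higher and 1 lower, against 4.84% and 2.47% of all genes. The immediate early list, with 13 members at 10 CPM or more, and the list of NF-kB subunits and inhibitors, with 11, had 0 calls in either direction.

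Of the 9 cytokine genes at 10 CPM or more 2 were called higher in IR DN, and of the 6 chemokine genes 2, against 4.84% of all genes. Csf2 (GM-CSF, a growth factor for myeloid cells) reached 113.6 CPM (104 to 124) in IR DN, with 26.3 CPM (24 to 28.8) in IR CD4. Its UMIs lay in 4.4% of IR DN cells and 2.2% of IR CD4 cells. Its log2 ratio of 2.11 came to 1.73 with the top 5% of barcodes removed and to 1.88 as a mean over cells. Without cells with NK receptor transcripts it was 2.7. Xcl1, the chemokine that attracts XCR1+ dendritic cells, was at 1309.8 and 472.6 CPM, and Ccl4 at 122.1 and 40.7 CPM, though the Ccl4 call ended without cells with transcripts of naive T cells. In IR CD8 Ccl4 stood higher than in either library, at 697.6 CPM. Fgl2, which encodes a prothrombinase with a secreted form that acts on antigen-presenting cells, was at 275.4 and 92.3 CPM. Ifng was within 2-fold at 999.6 and 641.9 CPM, as were Tnf (101.3 and 78.6 CPM), Il4 (139.4 and 91.1 CPM) and Cd40lg (253.8 and 242.1 CPM). Without cells with NK receptor transcripts the log2 ratio of Il4 went from 0.61 to 1.29, past 2-fold. Il10, Il17a and Il22 did not reach 10 CPM in either library.

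In the cytotoxic granule list 2 of 9 members at 10 CPM or more were called higher (4.84% of all genes), namely Prf1 (perforin, 20.8 and 9.11 CPM) and Ctsw (cathepsin W, 574.2 and 284.4 CPM), and 1 lower (2.47% of all genes), Gzmk (4.98 and 28.4 CPM). The Prf1 call ended after thinning, and the Ctsw call, just past 2-fold, under TMM scaling, with no Cd3 requirement, with no cell filters and without cells with transcripts of naive T cells. Gzma (170.1 and 88.1 CPM) and Gzmb (91.8 and 55.1 CPM) stayed within 2-fold. Gzmc, which was not on the list but was among the 15 largest ratios, was at 61.1 CPM in IR DN and 10.5 CPM in IR CD4. Among residency genes, Itga1 (CD49a, a collagen receptor) was at 136.2 and 49.0 CPM, whereas Cd69 was at 475.8 and 464.6 CPM and Cxcr6 at 475.2 and 277.8 CPM.

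Transcripts of naive and recirculating T cells were lower in IR DN. All 12 listed genes reached 10 CPM, 7 of them were called lower against 2.47% of all genes, and the median log2 ratio was -1.5. Ccr7, the receptor that brings T cells into lymph nodes, had 9.14 CPM (6.64 to 12.3) in IR DN, with 236.8 CPM (230 to 244) in IR CD4, a log2 ratio of -4.70. Igfbp4, a secreted binding protein for insulin-like growth factors, had 12 UMIs (2.49 CPM) in IR DN and 3743 UMIs (213.1 CPM) in IR CD4, a log2 ratio of -6.42. That ratio was -8.99 without barcodes found in more than 1 of the 3 ischemic libraries and -5.47 with no Cd3 requirement. S1pr1, the receptor for exit into lymph and blood, was at 42.2 and 269.4 CPM, a log2 ratio of -2.68 that came to -2.02 without cells with transcripts of naive T cells and to -3.34 without cells with NK receptor transcripts. The transcription factor genes Tcf7 (98.7 and 356.1 CPM) and Klf2 (835.1 and 1949 CPM) were called lower too, the Klf2 call ending without the cells with naive transcripts, but Lef1 (244.9 and 419.8 CPM) and Satb1 (553.1 and 588.7 CPM) were not.

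When cells with a UMI of Fcer1g, Klrb1c, Klre1, Klrc1, Klrc2, Klra1 or Klra5 were left out of both libraries, Spry2 kept a log2 ratio of 3.20 and Xcl1 of 1.66. Klra7 came to 3.88 and Tyrobp to 1.09, both under the minimum level. In all, 23 of 105 named calls ended. For the 7 genes that chose the cells this holds by construction. The calls of Klra3, Klra6, Klra9, Klri2, Prf1 and Slamf1 ended as well. So did those of S100a9, C1qa, C1qb, C1qc, Cd74, H2-Aa, H2-Ab1 and H2-Eb1.

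Genes of regulatory T cells were lower in part. Foxp3, the lineage factor, had 0 UMIs in IR DN and 496 UMIs (28.2 CPM) in IR CD4, at least 45.3-fold lower against the floor of 3 counts in the library. As a log2 ratio this bound was -5.5. It came to -4.21 after thinning, -5.14 without cells with transcripts of naive T cells and -4.635 without cells with NK receptor transcripts. Of the 9 listed genes 6 were called lower, against 2.47% of all genes, with a median log2 ratio of -1.55. Of these calls, that of Ikzf4 ended without cells with transcripts of naive T cells. Tnfrsf4 (OX40) was at 27.8 and 180.3 CPM, Ctla4 at 72.3 and 250.5 CPM and Izumo1r (folate receptor 4) at 17.2 and 99.9 CPM. Il2ra (94.3 and 59.7 CPM), Ikzf2 (297.6 and 207 CPM) and Tnfrsf18 (382.5 and 375 CPM) were not called. The coinhibitory receptor Pdcd1 was at 22.8 CPM in IR DN and 31.4 CPM in IR CD4.

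Among 19 cytokine receptor genes at 10 CPM or more, 3 were called lower and 1 higher, against 2.47% and 4.84% of all genes. Ifngr2, the signalling chain of the interferon gamma receptor, had 23 UMIs (4.78 CPM, 3.03 to 7.17) in IR DN and 1246 UMIs (70.9 CPM, 67 to 75) in IR CD4. Its log2 ratio of -3.89 came to -1.21 when cells with transcripts of naive T cells were left out of both libraries. The ligand-binding chain Ifngr1 was at 1272 and 886.8 CPM. Both chains of the interleukin 6 receptor were lower, Il6ra at 18.7 and 74.9 CPM and Il6st at 17.2 and 47.3 CPM. Il12rb2, a chain of the interleukin 12 receptor, was at 196.3 and 91.3 CPM, and its call ended without cells with transcripts of naive T cells.

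Of 13 lineage factors at 10 CPM or more, 0 were called higher and 3 lower (Foxp3, Tox and Id3), against 4.84% and 2.47% of all genes. The Id3 call ended with the left-out features kept, with no Cd3 requirement, with no cell filters and without cells with transcripts of naive T cells. Zbtb16 (PLZF), the factor of innate-like T cells, was at 122.3 CPM in IR DN and 73.2 CPM in IR CD4, against 0.271 CPM in IR CD8, and its log2 ratio went from 0.74 to 1.26 without cells with NK receptor transcripts. All 6 T cell receptor gamma segments at 10 CPM or more were called higher (4.84% of all genes), for example Tcrg-C4 (107.8 and 27.7 CPM) and Trgv2 (100.3 and 27.8 CPM), although the sort was for the beta chain and Trdc stayed under the minimum level. The SAP-associated receptors Slamf6 (16.8 and 86.9 CPM) and Slamf1 (28.5 and 72.4 CPM) were called lower. Of 9 proliferation genes at 10 CPM or more, 4 were called lower, against 2.47% of all genes, among them Mki67 with 15 and 211 UMIs (3.12 and 12.0 CPM). Mki67, Birc5 and Rrm2 fell under the minimum level, which ended their calls, after thinning, as a mean over cells and with the top 5% of barcodes removed. Mki67 and Rrm2 also lost their calls with the left-out features kept, and Stmn1, the other call, with no Cd3 requirement, with no cell filters and without cells with transcripts of naive T cells. Glycolysis genes (14 members), MHC class I genes (6) and chemokine receptor genes (10) gave 0 calls. In the lists of costimulatory receptors (10 members at 10 CPM or more), coinhibitory receptors (7) and cytokine signalling regulators (13), 2 members each were called lower and 0 higher, against 2.47% and 4.84% of all genes, among them Cd5 (45.7 and 156.2 CPM), which dampens receptor signalling, and Socs3 (113.4 and 281.9 CPM), an inhibitor of STAT3. The calls of Socs3 and Stat5b, both of the cytokine signalling list, ended without cells with transcripts of naive T cells. The BCL2 family (12 members), heat shock (11) and interferon-stimulated (9) lists had 1 lower call each, against 2.47% of all genes, namely Pmaip1, Bag3 and Ifi27l2a (497.6 and 1428 CPM). The Bag3 call ended with the left-out features kept, with no Cd3 requirement and with no cell filters.

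**Figure D3:**
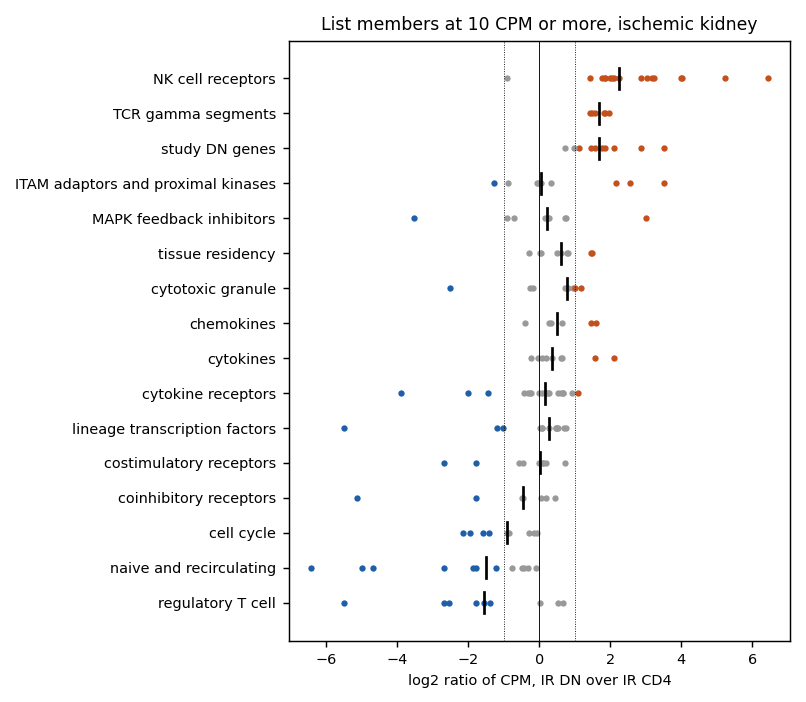
Log2 ratio of CPM in IR DN over IR CD4 for the members of 16 gene lists at 10 CPM or more, with each point a gene, orange for genes called higher, blue for genes called lower, and a black bar for the median of the list. NK cell receptors (median 2.23) lie to the right, naive and recirculating (-1.5) and regulatory T cell genes (-1.55) to the left. Foxp3 is drawn at its bound.

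The study put forward 10 genes for DN cells from its control libraries, so their direction in the normal kidney is not independent evidence. In the ischemic kidney 8 of them were called higher, against 4.84% of all genes, and Lyst (670 and 340.2 CPM, where the value was just under 2-fold) and Dusp1 were not. Kcnq5, a potassium channel gene, was at 820.5 CPM in IR DN and 380 CPM in IR CD4, just past the threshold. Its log2 ratio of 1.11 came to 0.89, under 2-fold, when cells with transcripts of naive T cells were left out of both libraries.

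Markers of other cells differed by cell type. The 9 genes of NK cells and innate lymphoid cells, which share members with the NK receptor, adaptor and granule lists, summed to 644.4 CPM in IR DN and 434.4 CPM in IR CD4. Of their 5 members at 10 CPM or more, Prf1 and Tyrobp were called higher (4.84% of all genes) and Areg lower (2.47%), with a median log2 ratio of 0.95. The 13 myeloid genes summed to 212.5 CPM in IR DN and 400.4 CPM in IR CD4, and 5 of the 6 at 10 CPM or more were called lower, against 2.47% of all genes. The S100a9 call ended with the left-out features kept, after thinning and as a mean over cells. It also ended without cells with transcripts of naive T cells, and without cells with NK receptor transcripts. Antigen presentation genes summed to 31.8 and 115.1 CPM with 4 of 4 lower, and erythroid genes to 21.2 and 215.8 CPM with 4 of 4 lower. All 4 antigen presentation calls and the myeloid calls of C1qa, C1qb and C1qc ended when barcodes with non-T transcripts were left out, and the ratios of H2-Eb1 and C1qc turned positive. Those barcodes were chosen on these genes among others, so leaving them out lowers the genes by construction. Of the erythroid genes, Hba-a1, Hba-a2 and Hbb-bt lost their calls with the top 5% of barcodes removed, after thinning and as a mean over cells, and all 4 turned positive with no cell filters. Among the defining markers Lyz2 was at 3.32 and 3.07 CPM, and the tubule genes summed to 5.4 and 4.9 CPM with 0 at the minimum level. Cells with 3 or more UMIs over 13 such genes numbered 18 (0.456%) in IR DN and 133 (1.29%) in IR CD4. With these cells left out, Fcer1g stood at a log2 ratio of 4.46 and Tyrobp at 3.65, larger than with them. The part of these markers in the other calls was not tested.

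Depth per cell was matched by thinning each cell to 500 UMIs. A UMI of Fcer1g was then found in 10.3% of IR DN cells (9.37 to 11.3, exact binomial interval) and 0.932% of IR CD4 cells (0.756 to 1.14). In IR CD8 cells, which should rarely carry the gene, the share was 0.795%. Without barcodes with non-T transcripts the shares were 10.2% in IR DN, 0.659% in IR CD4 and 0.752% in IR CD8. Without thinning the shares were 15.9%, 1.98% and 1.33%, at medians of 1061, 1477 and 973 retained UMIs per cell. Spry2 was found in 13.8% of IR DN cells and 2.06% of IR CD4 cells, and in 1.2% of IR CD8 cells (22.8%, 4.65% and 1.84% unthinned). Klrb1c was found in 10.3% and 2.88%, with 0.374% in IR CD8 (20.5%, 8.17% and 0.842% unthinned). Xcl1 was found in 34.8% of IR DN cells and 12.6% of IR CD4 cells, with 6.22% in IR CD8 (50.5%, 23.5% and 10.1% unthinned). For Klrd1 the order differed, with 20.75% in IR DN, 6.3% in IR CD4 and 26.9% in IR CD8 (35.8%, 14.3% and 43.1% unthinned). Cd4 was found in 6.88% of IR CD4 cells (19.9% unthinned), and in IR DN in 1 of 3951 cells thinned and 3 unthinned.

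Co-detection of the leading transcripts in single IR DN cells was uneven. Among the 407 thinned IR DN cells with an Fcer1g UMI, 26.8% (22.5 to 31.4) had one of Spry2, against 12.3% (11.2 to 13.4) of the 3544 cells without. Kcnq5 showed the opposite order, in 15.7% (12.3 to 19.6) of cells with Fcer1g and 30.1% (28.6 to 31.6) of those without. Klrb1c was found in 16.2% and 9.65%, and Ifng in 30.2% and 32.0%, of cells with and without Fcer1g. Spry2 was found in 12.7% of cells with Klrb1c and 13.9% of those without. These are shares among cells of 1 library and were not tested.

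**Figure D4:**
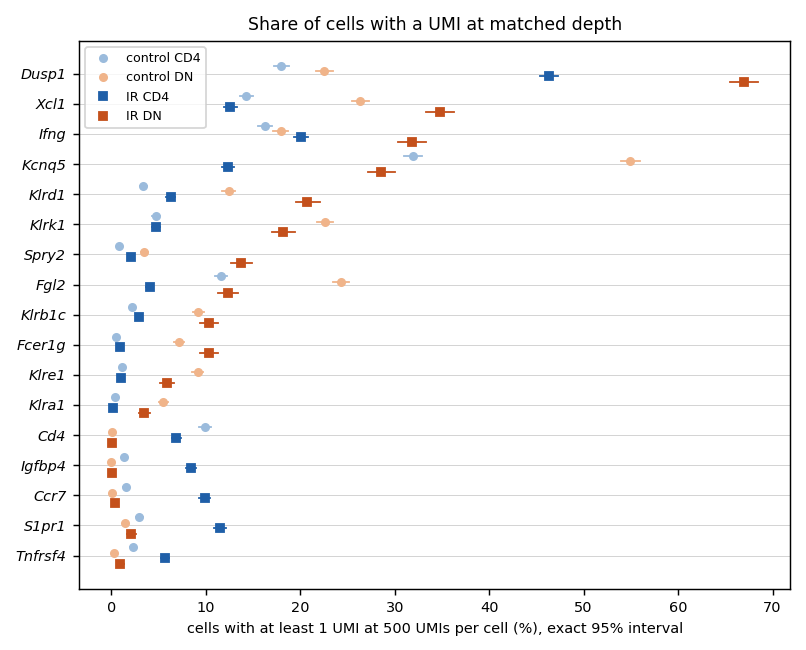
Share of cells with at least 1 UMI of 17 genes after every cell was thinned to 500 UMIs, in 4 libraries, with exact 95% binomial intervals. Xcl1, Spry2, Fcer1g and the NK receptor genes were found in more IR DN than IR CD4 cells, and Cd4, Igfbp4, Ccr7, S1pr1 and Tnfrsf4 in more IR CD4 cells.

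The same contrast in the normal kidney rests on other libraries, processed with an earlier software version than the ischemic ones, so each ratio was formed within a kidney. Of the 431 genes called higher in the ischemic kidney, 67 were called higher in the normal kidney as well (15.6% of the ischemic and 59.3% of the normal calls). For lower genes the overlap was 80 (36.4% and 66.1%). Over all 8893 genes at 10 CPM or more in normal kidney, 1.27% were called higher and 1.36% lower. Without the genes of the ischemic libraries, 66 of 211 higher calls were shared (31.3%). Of the 431 higher genes 258, and of the 220 lower genes 49, did not reach 10 CPM in normal kidney.

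The median log2 ratio of the NK receptors at 10 CPM or more was 2.23 in the ischemic kidney and 2.52 in the normal kidney, a difference that was not tested. The adaptor Fcer1g reached 189.6 CPM in control DN, with 12.9 CPM in control CD4, a log2 ratio of 3.87, and Klra7 reached 109.9 and 3.61 CPM, a log2 ratio of 4.93. In normal kidney 17 of 19 listed receptors at 10 CPM or more were called higher, against 1.27% of all genes there. Cd4 (0.33 and 202.5 CPM), Igfbp4 (0.143 and 33.9 CPM) and Ccr7 (1.03 and 31.2 CPM) were lower in control DN as in IR DN. Spry2 reached 73.5 CPM in control DN, with 19.0 CPM in control CD4, a log2 ratio of 1.95 against 3.0 in the ischemic kidney, and Csf2 was at 31.5 and 18.2 CPM, a log2 ratio of 0.80 against 2.11.

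Some ratios stood apart between the kidneys. Gzma reached 76.6 CPM in control DN, with 11.3 CPM in control CD4, a log2 ratio of 2.76, while in the ischemic kidney it was 0.95. S1pr1 was at 32.6 and 63.6 CPM in the control pair, a log2 ratio of -0.96 against -2.68. Cd200, which encodes a ligand that restrains myeloid cells, was at 1.87 CPM in IR DN and 66.2 CPM in IR CD4, but at 2.6 and 7.48 CPM in the control pair, and it belonged to the genes of the ischemic libraries. These differences of ratios were not tested.

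**Figure D5:**
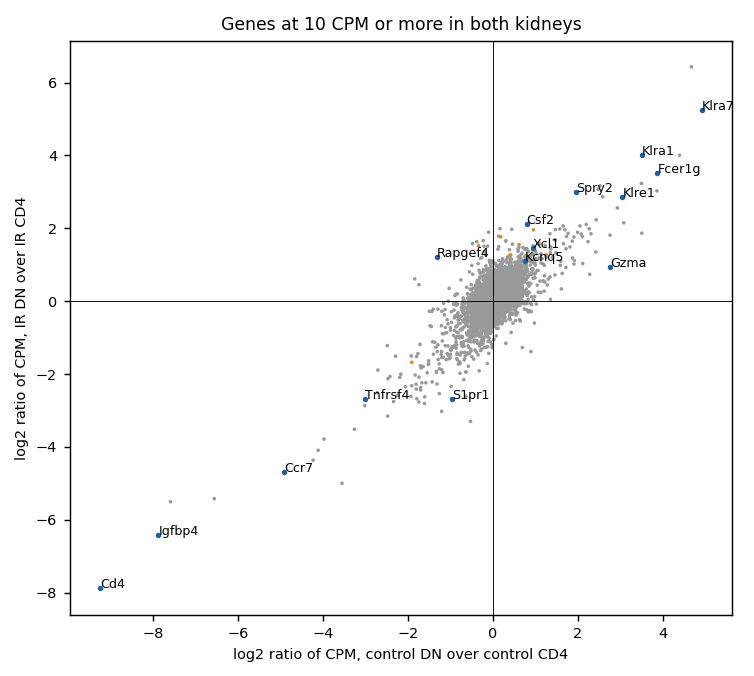
Log2 ratio of CPM of DN over CD4 in ischemic kidney (vertical axis) against normal kidney (horizontal axis) for genes at 10 CPM or more in both, with genes of the ischemic libraries in orange. Cd4, Igfbp4, Ccr7, Fcer1g and Klra7 lie in the same quadrant corners in both kidneys, and Rapgef4 lies at 1.21 and -1.32.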

How the data were processed

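The authors deposited raw UMI counts per gene and barcode, made with Cell Ranger on the mm10 build. The deposited file headers name version 6.0.1 for the ischemic libraries and 5.0.1 for the control libraries, and the submitters' processing notes name 6.0.1. No file was normalized. Of 32285 features, 104 (mitochondrial genes, ribosomal protein genes and Malat1) were left out. Counts of barcodes with at least 500 detected genes, at most 20% mitochondrial UMIs and at least 1 UMI over Cd3d, Cd3e and Cd3g were summed per library and scaled to CPM. A gene was called at 10 CPM or more in the higher library and a ratio of at least 2, with a floor of 3 counts for a library at 0. Counts were given exact 95% Poisson intervals and shares exact Clopper-Pearson 95% intervals. UMIs are counted molecules, and intervals cover counting error only. With 1 library per group, differences cannot be set against spread between animals.

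The genes named are Cd4, Spry2 and Fcer1g, members of 35 gene lists, the 15 largest ratios in each direction at 50 CPM or more, the 10 largest differences between kidneys in each direction, and genes 2-fold in opposite directions. Members and lists were chosen with earlier results of these data known. The genes of the ischemic libraries were defined after the values were seen. No doublet caller was run, and an alternative removed the top 5% of barcodes. Other alternatives changed the scaling (TMM of edgeR 4.0.16), the filters, the depth, the weighting, the minimum and the fold. On counts simulated with counting error alone for IR DN over IR CD4 (8904 genes, 200 changed 4-fold), the rule recovered 100% and called 0 unchanged genes. The simulation held no spread between animals or libraries, so it gives no rate of false calls for these data. Gene positions were matched to GENCODE M21 (GRCm38) by Ensembl identifier for 99.9% of features. Start regions came from RefSeq. Results on 1 listed gene are not reported here. Python 3.11.15, numpy 2.4.6, scipy 1.17.1, pandas 2.3.3 and R 4.3.3 were used.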

Additional observations from a re-analysis of the deposited data

Results flagged for a closer look

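Rapgef4, which encodes an exchange factor for the GTPase Rap1, was higher in DN than CD4 in ischemic kidney (126.9 and 54.7 CPM, log2 ratio 1.21) and lower in normal kidney (14.0 and 35.1 CPM, log2 ratio -1.32). It stands out because the direction differs between the kidneys, with 1 library per group, and the difference was not tested.

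Barcodes without a Cd3 UMI, which the filters leave out of the values reported above, were examined for the same transcripts. The genes of the ischemic libraries made up 358.4 per 10000 retained UMIs in those of IR DN and 226.9 in those of IR CD4, against 46.9 in control DN and 23.6 in control CD4. The 13 non-T genes made up 19.04 per 10000 retained UMIs in those of IR CD4 and 13.04 in control CD4, whereas in the DN libraries the order was the other way, with 5.92 in IR DN and 123.8 in control DN. The control DN value rests on 78 barcodes, of which 3.85% held 3 or more such UMIs, against 423 barcodes in IR DN.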

How the results depend on the processing

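No paired analysis was possible because each group had 1 library and the labels give no replicate numbers. Counts are given in the order higher in IR DN, lower in IR DN, higher in both kidneys and lower in both kidneys (431, 220, 67 and 80 as reported). Without a minimum CPM they were 3401, 1035, 646 and 343, at a minimum of 50 CPM 125, 82, 28 and 27, at 1.5-fold 875, 455, 197 and 158, and at 4-fold 99, 71, 16 and 21. Leaving out the genes of the ischemic libraries, chosen after seeing the data, gave 211 higher genes. The split of higher against lower calls moved with the cells and the scaling. It was 582 and 199 with no Cd3 requirement, 582 and 193 with no cell filters, 617 and 267 without NK receptor cells and 403 and 160 without cells with transcripts of naive T cells. TMM gave 372 and 260 with a median log2 ratio of -0.09, and keeping ribosomal, mitochondrial and Malat1 counts gave 429 and 146 with a median of 0.17. Of 105 named called genes, 104 kept their call under TMM (Ctsw did not) and 94 with the features kept. Thinning kept 94, removing the top 5% of barcodes 95, and leaving out barcodes with non-T transcripts 98. Leaving out cells with transcripts of naive T cells kept 81 (Kcnq5, Ccl4, Il12rb2, Klf2, Socs3 and Stat5b were among those that did not), and leaving out NK receptor cells kept 82. A log2 ratio that was negative as reported turned positive for C1qc (0.13) and H2-Eb1 (0.21) without barcodes with non-T transcripts. Hba-a1 turned with the top 5% removed (0.15), with the cells with naive transcripts left out (0.21) and with no cell filters (0.82), and Hba-a2 (0.74), Hbb-bs (0.33) and Hbb-bt (0.71) turned with no cell filters. The cause of these turns was not tested. The barcodes with non-T transcripts were chosen on C1qc and H2-Eb1 among other genes, so leaving them out lowers these genes by construction. Depth limited low genes in IR DN, where the floor was 0.623 CPM.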
